A study of Mus musculus with 34 samples.

Results

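Oxidative phosphorylation is carried out by 5 protein complexes of the inner mitochondrial membrane, and the nuclear genes that encode their subunits were followed here in mouse hepatocellular carcinoma (HCC) and in liver without HCC. Members were the probes of an Illumina mouse BeadChip whose platform gene symbol began with Ndufa, Ndufb, Ndufc, Ndufs, Ndufv, Uqcr, Cox4 to Cox8 or Atp5, or was Sdha, Sdhb, Sdhc or Sdhd. The Ndufaf genes, which encode assembly factors, were left out. The rule found 122 of 45281 probes, which stood for 79 of the 19057 genes that had a probe with a single symbol. Complex I had 36 of these genes, complex II 4, complex III 7, complex IV 16 and complex V 16. Each gene was read from its probe of highest mean signal. The subunits encoded in mitochondrial DNA carry other symbols and were not included, and 1 member, Ndufs5-ps, is a pseudogene whose sequence resembles the complex I subunit gene Ndufs5, so the transcript it measures is uncertain.

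In cells that respire, complex I takes electrons from NADH and complex II takes them from succinate, and both pass them to coenzyme Q. Complex III hands them on to cytochrome c and complex IV to oxygen. Complexes I, III and IV pump protons across the inner membrane, and complex V, the ATP synthase, uses the returning protons to make ATP. Hepatocytes are rich in mitochondria and depend on this chain for energy, and many liver tumors are known to use more glycolysis than the liver around them.

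The livers, with HCC also called tumors here, came from male C3H/HeNCrl mice and gave 34 arrays in 6 groups. Each array was taken as 1 mouse, and mouse identities were not used here. The C3H strain is prone to liver tumors late in life even without radiation. Mice were irradiated once over the whole body as young adults and then kept until they became moribund, grew a tumor or reached old age. The non-HCC livers of irradiated mice are described in the study as matched for age and as taken after iron ions or γ-rays. Ages at sampling were not used here. High-LET HCC (n = 7) arose after 0.1 to 1 Gy of high linear energy transfer radiation (iron or silicon ions), low-LET HCC (n = 3) after 2 to 3 Gy of γ-rays, and spontaneous HCC (n = 4) in mice given 0 Gy. Liver with normal pathology came from mice given 1 Gy of high-LET radiation (high-LET non-HCC, n = 10), 3 to 7 Gy of low-LET radiation (low-LET non-HCC, n = 4) or 0 Gy (sham, n = 6). These doses are those of the labels, and the study's methods give a lower range for γ-rays. No group carried an engineered allele. Dose was not matched between radiation types or between HCC and non-HCC livers. By the study's description silicon had no non-HCC livers, and the ion was not used to divide the high-LET groups. P-values measure the spread between mice within these groups.

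Before normalization the arrays had median signals of 93.1 to 127, with 20377 to 24284 probes above background, and 2 arrays correlated at 0.915 or more across probes. Of the hepatocyte markers, 8 or 9 of the 9 measured were above background on every array, including Ttr, Apoa1 and Hnf4a. The probes of Alb and Fgb were dim, with mean normalized log2 signals of 6.86 and 6.12. Fgb was above background on 22 of the 34 arrays. The groups were spread over 8 BeadChips, and a group had arrays on 3 to 6 chips. Chip 4 held only tumors (high-LET HCC replicates 3 and 7 and low-LET HCC replicate 3), and chip 5 held only non-HCC livers. On these chips HCC cannot be told apart from the chip. Of the 79 members, 66 were above background on all 34 arrays: 34 in complex I, 3 in complex II, 6 in complex III, 9 in complex IV and 14 in complex V. Ndufs1, Cox4i2, Cox7b2 and Cox8c were above background on none, and Sdha on 1 array only, so the 79 include genes the probes could barely measure. Levels below are log2 signals after normalization, and they are compared between groups for 1 probe at a time, never between genes.

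Promoters are shown for 4 members to which the results return: Sdhb, which was lower in every kind of HCC, Ndufb7, the only such gene with a match to a searched motif, Cox6a1, which holds matches to 2 motifs, and Cox7a2l, the only member called higher in high-LET tumors. Each run is the 250 bases before the gene's start in RefSeq (GRCm38.p6), 5′ to 3′ on the gene's strand, and capitals mark matches.
Sdhb, chr4:140961021-140961270, plus strand: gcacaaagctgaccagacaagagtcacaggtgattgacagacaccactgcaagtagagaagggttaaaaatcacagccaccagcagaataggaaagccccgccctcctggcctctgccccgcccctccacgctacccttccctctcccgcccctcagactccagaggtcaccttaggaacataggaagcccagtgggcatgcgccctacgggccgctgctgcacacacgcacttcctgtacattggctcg
Ndufb7, chr8:83566508-83566757, plus strand: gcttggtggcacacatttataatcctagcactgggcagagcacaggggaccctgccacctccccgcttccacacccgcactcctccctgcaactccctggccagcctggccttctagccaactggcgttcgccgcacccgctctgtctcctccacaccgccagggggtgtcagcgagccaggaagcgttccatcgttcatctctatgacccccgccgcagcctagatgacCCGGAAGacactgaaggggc
Cox6a1, chr5:115348959-115349208, minus strand: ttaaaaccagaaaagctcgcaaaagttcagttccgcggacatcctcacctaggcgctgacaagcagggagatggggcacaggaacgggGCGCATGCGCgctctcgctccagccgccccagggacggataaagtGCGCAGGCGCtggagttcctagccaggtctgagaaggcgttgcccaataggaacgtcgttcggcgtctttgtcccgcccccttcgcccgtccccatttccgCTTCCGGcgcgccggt
Cox7a2l, chr17:83514334-83514583, minus strand: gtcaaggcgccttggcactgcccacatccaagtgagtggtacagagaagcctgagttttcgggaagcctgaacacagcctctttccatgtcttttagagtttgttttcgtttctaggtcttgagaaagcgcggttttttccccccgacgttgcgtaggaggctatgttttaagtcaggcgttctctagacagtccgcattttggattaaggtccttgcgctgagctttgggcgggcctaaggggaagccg
RefSeq promoters were matched to 65 of the 79 members by Entrez gene ID, and 4 motifs of factors known to act on nuclear genes for mitochondria were searched on both strands. The NRF1 motif, a palindrome of GC-rich half-sites of which the first pair of capital runs in the Cox6a1 promoter are examples, was found in 12 of 65 members (18.5%), against 4.23% of 27025 genes. The ETS motif CCGGAAG, bound by NRF2 (GABPA) among others, was found in 12 of 65 (18.5%), against 7.83% of all genes. The YY1 motif AANATGGCG was found in 3 members (4.62% against 1.29%) and the estrogen-related receptor motif TNAAGGTCA in 2 (3.08% against 1.3%). Of the 8 members with a promoter that were lower in all 3 kinds of HCC, none held the NRF1 motif and 1, Ndufb7, held the ETS motif, 20 bases before its start. Of the 31 members lower in no kind of HCC, 8 held the NRF1 motif (25.8%) and 4 the ETS motif (12.9%). These are matches of letters and were not tested.

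The first comparison asked how each kind of HCC differed from sham liver. A part of the subunit genes was lower in each of the 3 kinds of HCC, and almost none was higher. With a call set at adjusted p under 0.1 and a fold above 1.3 in limma, 19 of 79 members were lower in high-LET tumors (24.1%), 27 in low-LET tumors (34.2%) and 29 in spontaneous tumors (36.7%). Over all 19047 genes tested the lower calls made up 5.47% in high-LET tumors, 6% in low-LET tumors and 6.89% in spontaneous tumors. Higher calls numbered 1 member in high-LET tumors (Cox7a2l), 0 in low-LET tumors and 1 in spontaneous tumors (Cox6a2), against 4.62%, 5.4% and 7.32% of all genes. The median change of the members was -0.28 on the log2 scale in high-LET tumors, -0.36 in low-LET tumors and -0.34 in spontaneous tumors, against medians of all genes within 0.01 of 0. Of the 79, 69, 70 and 71 were below sham in the 3 kinds, whether called or not. Probes of the same gene differed in call for 6, 11 and 10 member genes in the 3 kinds. In no gene was a probe called higher and another lower. Without high-LET HCC replicate 3, which lay on chip 4 with no non-HCC liver, the lower calls in high-LET tumors were 11. In tissue RNA, fewer cells of a type and less RNA per cell cannot be told apart.

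**Figure D1:**
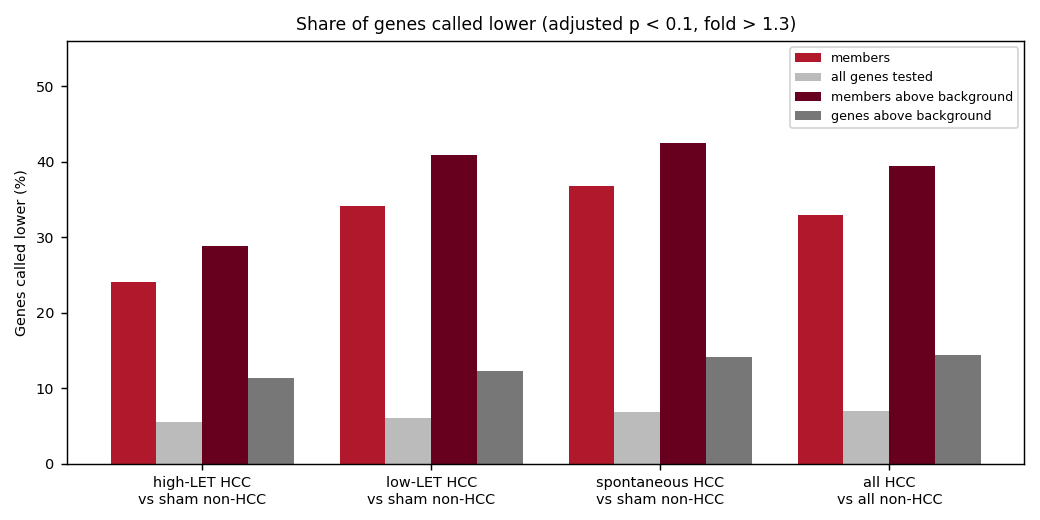
Share of genes called lower (percent, y axis) in the 3 kinds of HCC (high-LET, low-LET, spontaneous) against sham liver and in all HCC against all non-HCC liver, for the members, for all genes tested, and for members and genes above background on all arrays. The members' bars are 24.1%, 34.2% and 36.7% in the 3 kinds of HCC, against 5.47%, 6% and 6.89% for all genes.

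Bright probes are called more often, so the members were also set against bright genes. Among the 66 members above background on all arrays, 28.8% were lower in high-LET tumors, 40.9% in low-LET tumors and 42.4% in spontaneous tumors. Among all 8385 genes above background on all arrays, the lower calls were 11.4%, 12.3% and 14.1%. The changes were modest in size. In high-LET HCC 36 members passed the adjusted p, 35 of them lower, but 16 of the 36 changed by less than 1.3-fold. In low-LET HCC 34 passed, 33 of them lower, and in spontaneous tumors 42 passed, 40 of them lower. The share of all genes passing the adjusted p alone is not given here, so these counts are not set against it. The calls depended on the scaling: when arrays were instead only brought to 1 common median, calls in either direction fell to 3, 9 and 19 members, against 20, 27 and 30, while the members' medians stayed negative at -0.30, -0.39 and -0.49. Under that scaling 71.8%, 71.1% and 57% of all genes' calls were higher, against 45.8%, 47.4% and 51.5% with quantile normalization.

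Per array, the median of the 66 bright members relative to the sham mean was -0.56, -0.25 and -0.15 in high-LET tumors (lowest, median and highest of 7 arrays). It was -0.44, -0.40 and -0.31 in the 3 low-LET HCC and lay between -0.41 and -0.34 in the 4 spontaneous HCC. In the non-HCC livers it was -0.07, 0.03 and 0.08 after high-LET radiation (lowest, median and highest), -0.23 to -0.02 after low-LET radiation and -0.11, 0.02 and 0.11 in sham liver. All 14 tumors thus lay below all sham livers and all high-LET non-HCC livers, and 1 low-LET non-HCC liver, from a mouse given 5 Gy, overlapped the high-LET HCC. The group means were -0.30 ± 0.16 in high-LET tumors (SD, n = 7), -0.38 ± 0.07 in low-LET HCC (n = 3), -0.37 ± 0.03 in spontaneous HCC (n = 4) and 0 ± 0.08 in sham liver (n = 6). The high-LET HCC spread most and showed no order with dose: the tumor after 0.1 Gy was at -0.15, the 3 after 0.2 Gy at -0.56, -0.25 and -0.21, the tumor after 0.4 Gy at -0.46 and the 2 after 1 Gy at -0.32 and -0.16.

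**Figure D2:**
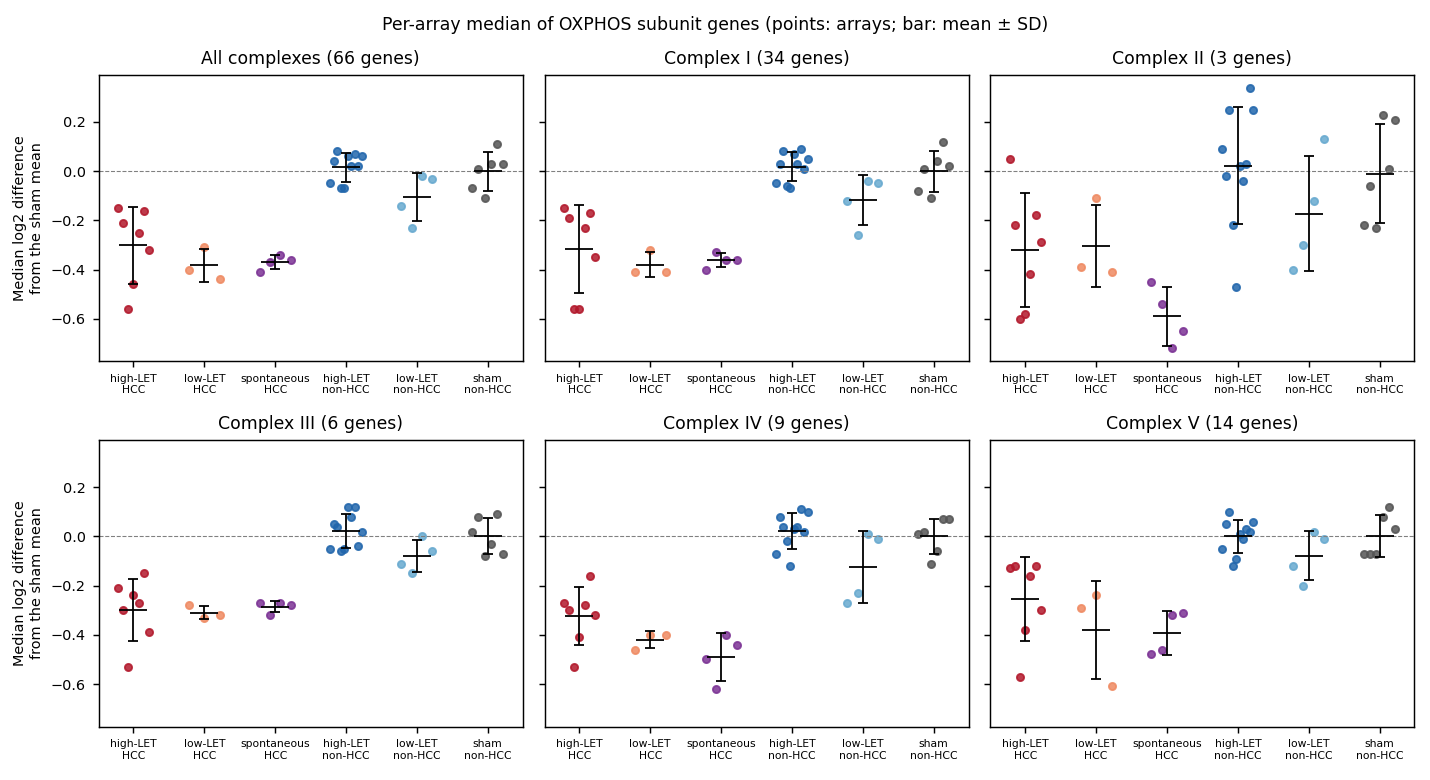
Median log2 signal of the bright members relative to the sham mean (y axis), 1 point per array, for all 66 genes and for complexes I to V (34, 3, 6, 9 and 14 genes), with the mean and SD of each of the 6 groups. For all 66 genes the 14 tumors lie between -0.56 and -0.15 and the 6 sham livers between -0.11 and 0.11.

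Complex I, the entry point for NADH electrons, is the largest of the complexes, with 36 of the 79 members. Of these, 12 were lower in high-LET tumors, 12 in low-LET tumors and 15 in spontaneous tumors, and none was higher. That was 33.3%, 33.3% and 41.7% of its members, against 5.47%, 6% and 6.89% of all genes. Genes above background on all arrays had 11.4%, 12.3% and 14.1%. In low-LET tumors the share was 42.9% in complex III and 37.5% in complex V. The median changes were -0.32, -0.38 and -0.37 on the log2 scale. Ndufa3, Ndufa9, Ndufa12, Ndufb3, Ndufb7, Ndufb8, Ndufs7 and Ndufs5-ps were lower in all 3 kinds of HCC, and with Sdhb of complex II they made up the 9 members of which this held. With BeadChip as a fixed block, 3 of the 9 (Ndufb3, Ndufb7 and Ndufs7) kept all their calls. The block ended the high-LET calls of Ndufa9 (-0.21, adjusted p = 0.265), Ndufa12 (-0.22, 0.448), Ndufb8 (-0.40, 0.12) and Sdhb (-0.47, 0.11), the low-LET calls of Ndufa3 (-0.49, 0.102), Ndufb8 (-0.43, 0.256) and Ndufs5-ps (-0.48, 0.139), and the spontaneous call of Ndufa9 (-0.36, 0.0449, under the fold). Without low-LET HCC replicate 3 the low-LET calls of Ndufa9 (-0.22) and Sdhb (-0.61) were lost, and that of Ndufb8 was lost without replicate 1 (-0.37) or replicate 2 (-0.46). The spontaneous call of Ndufa9 (-0.41) was lost in 12 of 46 alternatives, among them the authors' normalized values (-0.41, 0.112) and leaving out any 1 of the 4 spontaneous tumors (adjusted p of 0.116 to 0.208). Ndufs7 encodes an iron-sulfur subunit near the coenzyme Q site, and the other subunits in that list are accessory ones that surround the catalytic core. Ndufs8 and Ndufv3 were called lower in high-LET tumors only and Ndufv1, the flavoprotein that binds NADH, in low-LET tumors only, and whether these kinds of HCC differ in them is given by the tests between kinds of HCC. Ndufb4, another accessory subunit, was not above background on any of the 4 spontaneous tumors and was at least 1.25-fold higher in sham liver (adjusted p = 0.00944).

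Ndufb3, an accessory subunit of the membrane arm, had log2 signals of 9.65, 10 and 10.12 in high-LET tumors (lowest, median and highest of 7). It had 9.55, 9.80 and 9.92 in low-LET tumors and 9.55, 9.87, 10.15 and 10.21 in spontaneous tumors, against 10.37 to 10.83 in sham liver. No tumor reached the lowest sham liver. Ndufb3 fell by 0.68 ± 0.10 in high-LET tumors (log2 fold change ± SE, adjusted p = 6.6e-05), by 0.85 ± 0.13 in low-LET tumors (6.38e-05) and by 0.66 ± 0.12 in spontaneous tumors (0.000221). These calls were kept under each alternative processing and with any 1 array left out.

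Ndufa4 was first described in complex I and later found to belong to complex IV. Members were divided by symbol, so it is counted in complex I here and not in complex IV. Its signals were 12.97 to 13.45 in high-LET tumors. It had 12.45, 13.08 and 13.24 in low-LET tumors and 12.39, 12.56, 12.98 and 13.20 in spontaneous tumors, against 13.43 to 13.72 in sham liver. All low-LET and spontaneous tumors were below sham liver, and the high-LET tumors reached it. Its changes were -0.79 ± 0.12 in spontaneous tumors (adjusted p = 4.27e-05), -0.65 ± 0.13 in low-LET tumors (0.0018) and -0.32 ± 0.11 in high-LET tumors (0.0599), the last below the fold required. Ndufa3, an accessory subunit of the membrane arm, fell by 0.64 in high-LET tumors (adjusted p = 0.00023), 0.47 in low-LET tumors (0.0275) and 0.50 in spontaneous tumors (0.00646). The low-LET tumors overlapped sham liver for Ndufa3, and that call was lost without low-LET HCC replicate 1 (-0.32) or replicate 2 (-0.36). Ndufs5-ps fell by 0.65, 0.57 and 0.67, with every tumor of the 3 kinds below every sham liver. Ndufb7 fell by 0.58, 0.81 and 0.51, and Ndufa12 by 0.38, 0.94 and 0.68. Without low-LET HCC replicate 3 the low-LET changes were -0.42 for Ndufa4 and -0.60 for Ndufa12, both still called, and -0.72 for Ndufa3. The high-LET value of Ndufa12 lay at the fold limit and lost its call in 13 of 46 alternatives.

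Complex II, which also catalyses a step of the tricarboxylic acid cycle, had 1 called gene of 4 in each kind of HCC, and it was Sdhb, the iron-sulfur subunit. That was 25% of its members in each kind, against 5.47%, 6% and 6.89% of all genes called lower. Genes above background on all arrays had 11.4%, 12.3% and 14.1%, and the 25% is a single gene. Sdhb signals ran from 9.29 to 10.37 in high-LET tumors, were 9.32, 9.80 and 10.16 in low-LET tumors and 9.45, 9.70, 9.85 and 9.95 in spontaneous tumors, against 10.26 to 10.82 in sham liver. The low-LET and spontaneous tumors lay below all sham livers, and the high-LET tumors overlapped them. The changes were -0.60 ± 0.18 in high-LET tumors (adjusted p = 0.0311), -0.83 ± 0.23 in low-LET tumors (0.0175) and -0.86 ± 0.21 in spontaneous tumors (0.00487). A second bright probe of Sdhb was also called lower in all 3 kinds, by 0.61, 0.80 and 0.81, and another, dim probe was not. The high-LET call was lost under common-median scaling, with BeadChip as a fixed block and with only the compared groups fitted, and the low-LET call without low-LET HCC replicate 3 (-0.61, 0.192). Sdhc, a membrane anchor, had changes of -0.28, -0.21 and -0.22, none past the fold required. Sdhd, the other anchor, had -0.08, -0.29 and -0.61 with adjusted p of 0.914, 0.706 and 0.137, and Sdha, the flavoprotein, was too dim to measure.

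Complex III had 2 lower members of 7 in high-LET tumors, 3 in low-LET tumors and 1 in spontaneous tumors. These were 28.6%, 42.9% and 14.3%, against 11.4%, 12.3% and 14.1% of genes above background on all arrays. In spontaneous tumors complex III was thus near the share of such genes. Uqcr11, its smallest subunit, had 12.55 to 13.19 in high-LET tumors, 12.80, 12.84 and 13.13 in low-LET tumors and 12.94, 13.01, 13.03 and 13.09 in spontaneous tumors, against 13.26 to 13.49 in sham liver. Every tumor was below every sham liver. Uqcr11 fell by 0.48 ± 0.08 in high-LET tumors (adjusted p = 0.000195) and by 0.45 in low-LET tumors (0.00311), and its change of -0.36 in spontaneous tumors passed the adjusted p (0.00775) but not the fold. Uqcr10, another small subunit, had changes of -0.31, -0.41 and -0.32, called in low-LET tumors alone for the same reason. The core proteins divided: Uqcrc1 was called in high-LET tumors (-0.49, adjusted p = 0.0225), a call lost without high-LET HCC replicate 3 (-0.37), and Uqcrc2 in low-LET tumors (-0.42, 0.053) and spontaneous HCC (-0.42, 0.0232). The Uqcrc2 calls were lost without low-LET HCC replicate 3 (-0.16) and without spontaneous HCC replicate 3 (-0.37).

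Complex IV, cytochrome c oxidase, had 2, 5 and 6 lower members of 16 in the 3 kinds of HCC (high-LET, low-LET, spontaneous). These were 12.5%, 31.25% and 37.5%. All genes had 5.47%, 6% and 6.89%, and genes above background on all arrays 11.4%, 12.3% and 14.1%. The median changes over the 16 genes were -0.11, -0.16 and -0.21. Only 9 of them were above background on all arrays, and several of the rest are isoforms of other tissues. The median of those 9 on each array, relative to the sham mean, averaged -0.32 ± 0.12 in high-LET tumors, -0.42 ± 0.04 in low-LET tumors and -0.49 ± 0.10 in spontaneous tumors (SD, n = 7, 3 and 4). Cox5b, a zinc-binding subunit, had 12.94 to 13.55 in high-LET tumors, 12.90, 13.04 and 13.06 in low-LET tumors and 13.01, 13.17, 13.21 and 13.33 in spontaneous tumors, against 13.44 to 13.74 in sham liver. The low-LET and spontaneous tumors lay below all sham livers. Cox5b fell by 0.61 in low-LET tumors (adjusted p = 0.000121) and by 0.43 in spontaneous tumors (0.00117), and its -0.37 in high-LET tumors (0.00211) was just under the fold. Cox6a1, the isoform used in liver, fell by 0.59 in low-LET tumors (0.00139) and 0.52 in spontaneous tumors (0.0013), with -0.33 in high-LET tumors (0.0237). Cox6b1, on the outer face of the complex, fell by 0.45 in low-LET tumors and 0.43 in spontaneous tumors, with -0.35 in high-LET tumors. The low-LET change of Cox6a1 was -0.31 without low-LET HCC replicate 3, and the spontaneous changes of Cox5b without replicate 4 (-0.37) and Cox6b1 without replicate 1 (-0.36) of spontaneous HCC fell under the fold.

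Cox7a2l and Cox6a2 went the other way. Cox7a2l encodes a factor that joins complexes III and IV in supercomplexes, and its promoter held none of the 4 motifs. It had 10.09, 10.75 and 11.25 in high-LET tumors (lowest, median and highest of 7), 8.54, 10.32 and 10.87 in low-LET tumors and 9.02, 10.26, 10.52 and 10.61 in spontaneous tumors, against 9.20 to 10.13 in sham liver. The high-LET tumors overlapped sham liver only at the lowest tumor, while the other tumors fell on both sides. Cox7a2l rose by 0.85 ± 0.27 in high-LET tumors (adjusted p = 0.0463), with 0.12 (0.933) in low-LET tumors and 0.31 (0.676) in spontaneous tumors. Its call was lost under common-median scaling and without high-LET HCC replicate 4 (0.75, 0.108) or sham replicate 2 (0.73, 0.134). Cox6a2, the isoform of heart and skeletal muscle, was above background in 1 of 7 high-LET HCC, 3 of 3 low-LET HCC, 4 of 4 spontaneous HCC and no non-HCC liver. It had 6.06, 6.40, 6.46 and 6.50 in spontaneous tumors, against 5.86 to 6.02 in sham liver, where it was not above background, so it was at least 1.21-fold higher in spontaneous tumors (adjusted p = 0.00119). That call was lost without background correction and without spontaneous HCC replicate 1. The summed signal of 8 muscle markers was 518 to 543 in spontaneous tumors, against 554 to 591 in sham liver. Only 2 to 4 of the 8 were above background on an array in either group. These sums thus lie near background, and the part of muscle was not tested. The other isoforms of restricted tissues, Cox4i2, Cox6b2, Cox7a1, Cox7b2, Cox8b and Cox8c, had changes between -0.14 and 0.04 with adjusted p of 0.428 to 0.994.

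Complex V, the ATP synthase, had 2, 6 and 6 lower members of 16 in the 3 kinds of HCC (high-LET, low-LET, spontaneous), with median changes of -0.24, -0.35 and -0.36. The counts were 12.5%, 37.5% and 37.5%, against 11.4%, 12.3% and 14.1% of genes above background on all arrays. In high-LET tumors complex V was thus near the share of such genes. Atp5j2, the f subunit of the membrane part, had 12.92 to 13.43 in high-LET tumors, 13.10, 13.24 and 13.31 in low-LET tumors and 13.17, 13.24, 13.32 and 13.46 in spontaneous tumors, against 13.57 to 13.82 in sham liver. Every tumor was below every sham liver. Atp5j2 fell by 0.44 ± 0.07 in high-LET tumors (adjusted p = 9.77e-05) and 0.46 in low-LET tumors (0.00061), and its -0.38 in spontaneous tumors (0.00118) stayed just under the fold. Atp5b, the catalytic β subunit, fell by 0.56 in low-LET tumors (0.00183), with -0.20 in high-LET tumors (0.199) and -0.34 in spontaneous tumors (0.0326). Atp5o, which links the catalytic head to the stalk, had changes of -0.35, -0.36 and -0.33, each past the adjusted p and none past the fold.

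Atp5a1, the α subunit, showed the largest change of any member. It had 7.62 to 8.77 in high-LET tumors, 8.01, 8.28 and 8.36 in low-LET tumors and 7.09, 7.26, 7.50 and 7.51 in spontaneous tumors, against 8.08 to 9.02 in sham liver. The spontaneous tumors lay below all sham livers and below all high-LET and low-LET tumors. Atp5a1 fell by 1.22 ± 0.28 in spontaneous tumors (adjusted p = 0.00298), but a second probe of the gene gave -0.14 (0.744), and within BeadChips 1 and 6 the reported probe was at -0.91 and -0.92 relative to sham liver. The next largest change, -1.11 ± 0.43 for Atp5pb (the b subunit of the stator stalk) in low-LET tumors, was not called (0.14), and its 3 tumors had 7.92, 11.42 and 11.46.

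**Figure D3:**
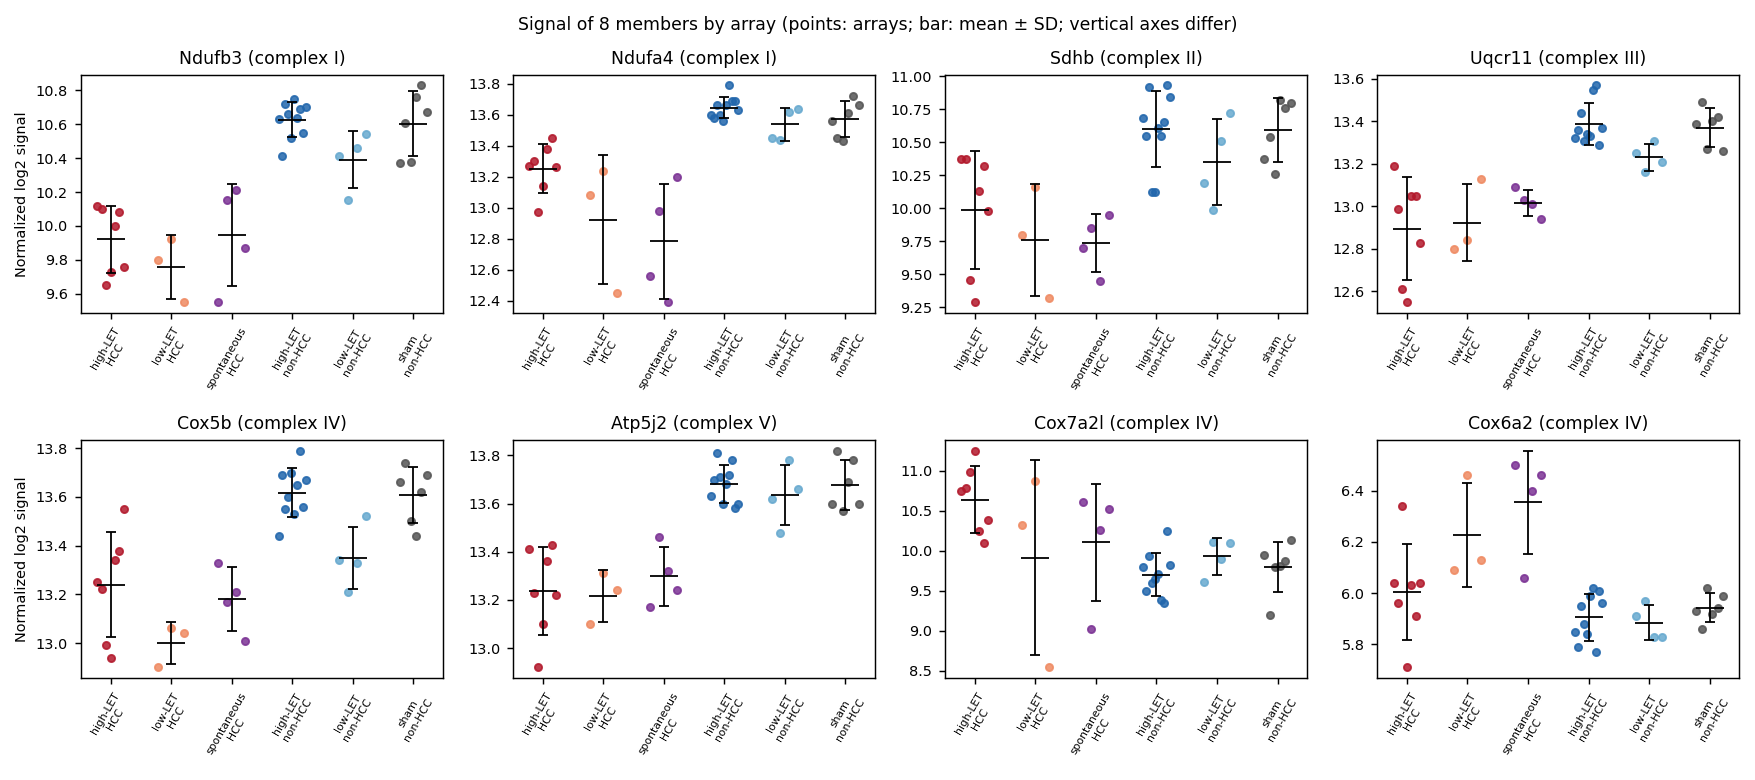
Log2 signal (y axis) of Ndufb3, Ndufa4, Sdhb, Uqcr11, Cox5b, Atp5j2, Cox7a2l and Cox6a2 on each of the 34 arrays, by group, with the group mean and SD. For Ndufb3 all tumors lie between 9.55 and 10.21 and the sham livers between 10.37 and 10.83, and for Cox7a2l the high-LET HCC reach 11.25.

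Across the 79 members, 9 were lower in all 3 kinds of HCC and 38 in none. Low-LET and spontaneous HCC shared 10 further lower members, among them Cox5a, Cox5b, Cox6a1, Cox6b1 and Ndufa4. Of these 10, Cox5a (-0.36), Cox6a1 (-0.31), Uqcrc2 (-0.16) and Atp5g3 (-0.17) lost their low-LET calls without low-LET HCC replicate 3. So did Atp5l (-0.13), called in low-LET tumors alone. High-LET HCC shared 3 with each of the other kinds. Spontaneous HCC alone had 7, low-LET HCC alone 5 and high-LET HCC alone 4. All 3 comparisons used the same sham livers, so these shared calls are not independent.

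**Figure D4:**
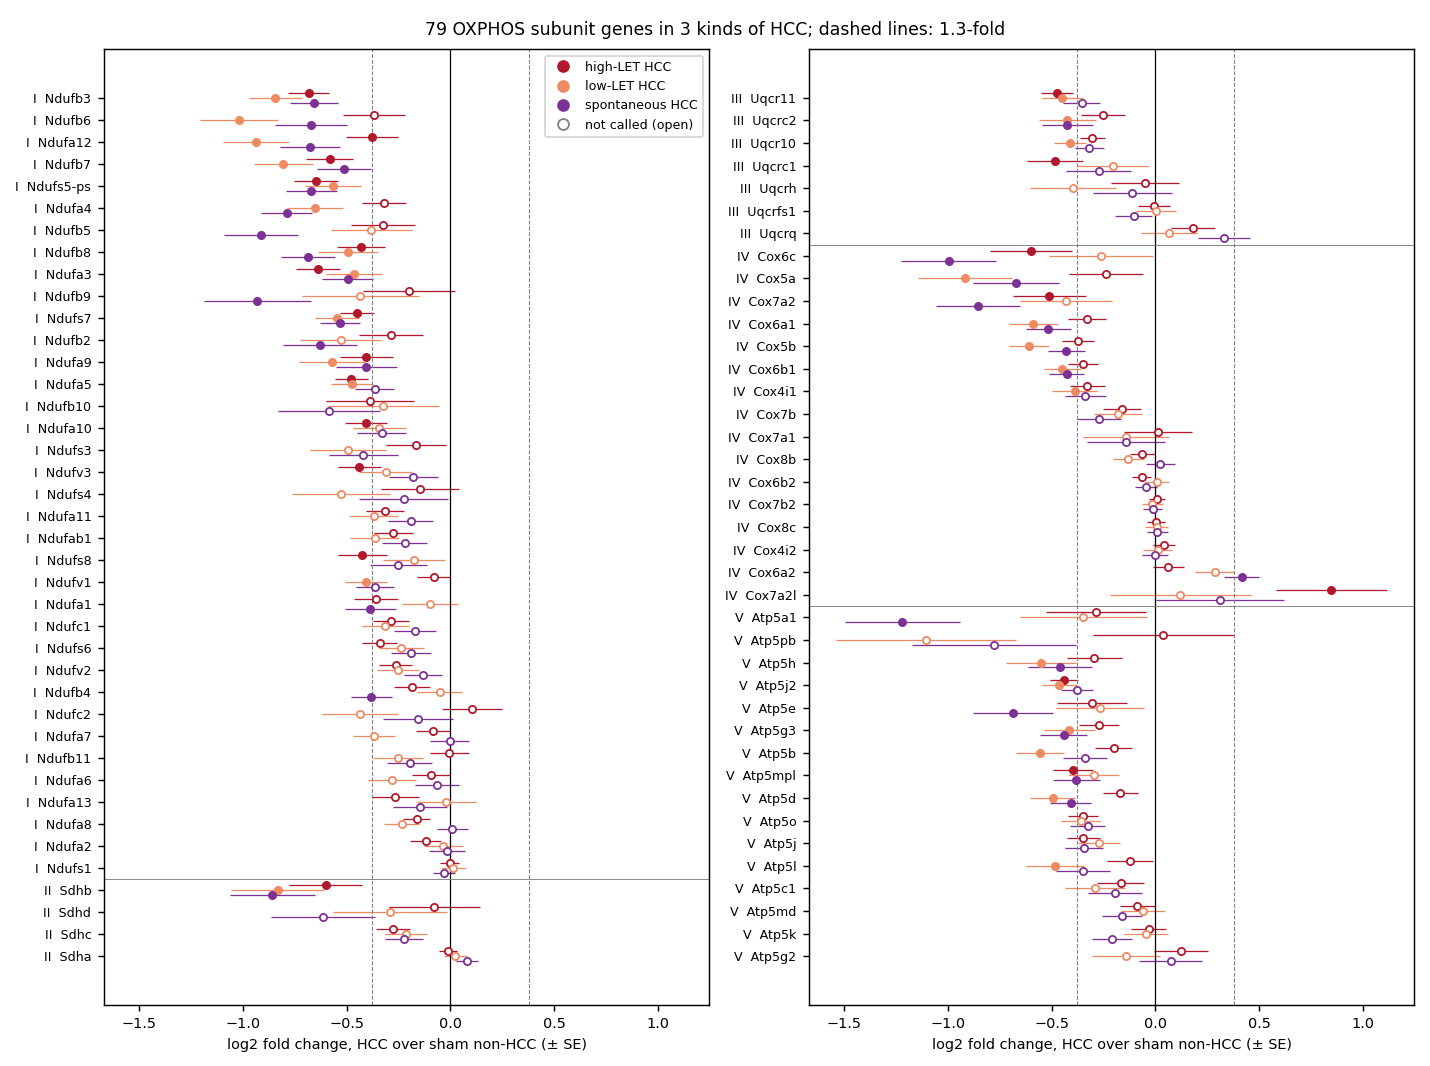
Log2 fold change against sham liver (x axis, ± SE) of the 79 members by complex, in the 3 kinds of HCC (high-LET, low-LET, spontaneous), filled where called, with dashed lines at 1.3-fold. Most points lie left of 0, with 69, 70 and 71 of 79 members negative.

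Tumors were next compared with non-HCC livers of the same radiation type (high-LET or low-LET, called the same radiation below). This asked whether the tumor difference held without the sham livers. Neither dose nor, in the high-LET comparison, the ion was matched. In high-LET HCC 26 members were lower and 1 higher than in high-LET non-HCC liver, against 6.15% and 5.64% of all genes, and the members' median was -0.27. In low-LET HCC 13 were lower and 0 higher than in low-LET non-HCC liver, against 5% and 4.91% of all genes, with a median of -0.23. Cox7a2l was the member higher in high-LET tumors, by 0.94 ± 0.24 (adjusted p = 0.00728), with 10.09 to 11.25 in the tumors and 9.35 to 10.25 in high-LET non-HCC liver. Ndufb3 had 9.65 to 10.12 in high-LET tumors and 10.41 to 10.75 in high-LET non-HCC liver, with no overlap. With BeadChip as a fixed block the calls in either direction fell to 17 and 5 members, against 27 and 13, and the low-LET comparison lost all 13 under common-median scaling. With 1 array left out, lower calls in the high-LET comparison were 16 without high-LET HCC replicate 3, and those in the low-LET comparison ran from 8 without low-LET non-HCC replicate 4 to 20 without low-LET HCC replicate 2.

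Over all HCC against all non-HCC livers, 26 members were lower and 0 higher, against 6.98% and 7.18% of all genes, with a median of -0.29. Among the bright members 39.4% were lower, against 14.4% of bright genes. When size was not considered, 56 members passed the adjusted p, 55 of them lower, so that 30 of the 56 had changes under 1.3-fold. The share of all genes passing without the fold limit is not given here.

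Between kinds of HCC few members differed. Between high-LET and low-LET HCC 0 members were called in limma, against 0.887% of all genes, with 16 at an unadjusted p under 0.05. Between low-LET and spontaneous HCC 0 were called, against 0.0105% of all genes, with 6 at an unadjusted p under 0.05. The shares of all genes at an unadjusted p under 0.05 are not given here. Between high-LET and spontaneous HCC 3 of 79 members (3.80%) were higher in high-LET tumors, close to the 3.49% of all genes called in either direction. These were Ndufa4 (0.47 ± 0.12, adjusted p = 0.0384), Ndufb5, an accessory complex I subunit (0.59 ± 0.17, 0.0777), and Atp5a1 (0.93 ± 0.27, 0.0708). Ndufb5 had 7.28 to 8.03 in high-LET tumors and 6.88, 7.06, 7.16 and 7.19 in spontaneous tumors, with no overlap. For Atp5a1 the second probe was not called in spontaneous tumors against sham liver. With BeadChip as a fixed block, Ndufa4 kept its call (0.56, 0.061), while Ndufb5 (0.29, 0.374) and Atp5a1 (0.36, 0.328) did not. Leaving out 1 tumor could also end these calls: Ndufa4 was at 0.40 (0.122) without spontaneous HCC replicate 1 and 0.34 (0.261) without replicate 3. Without low-LET HCC replicate 1, 9 members were called between high-LET and low-LET HCC. Cox7a2l was not among the members called between kinds of HCC.

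The non-HCC livers asked whether radiation alone moved these genes. No member was called in high-LET non-HCC liver or in low-LET non-HCC liver against sham liver in limma, and 0% and 0% of all genes were called, with 0 and 2 members at an unadjusted p under 0.05. The members' median was 0.01 in high-LET non-HCC liver, where 29 of 79 were negative, and -0.09 in low-LET non-HCC liver, where 69 of 79 were negative. Members' changes in low-LET non-HCC liver ran from -0.37 to 0.22. An interaction test of radiation with HCC, called at adjusted p under 0.2, found no member and 0.95% of all genes. The lowest adjusted p of a member was 0.378, for Cox6a2, and 10 members had an unadjusted p under 0.05. No share of all genes is given for the unadjusted counts.

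**Figure D5:**
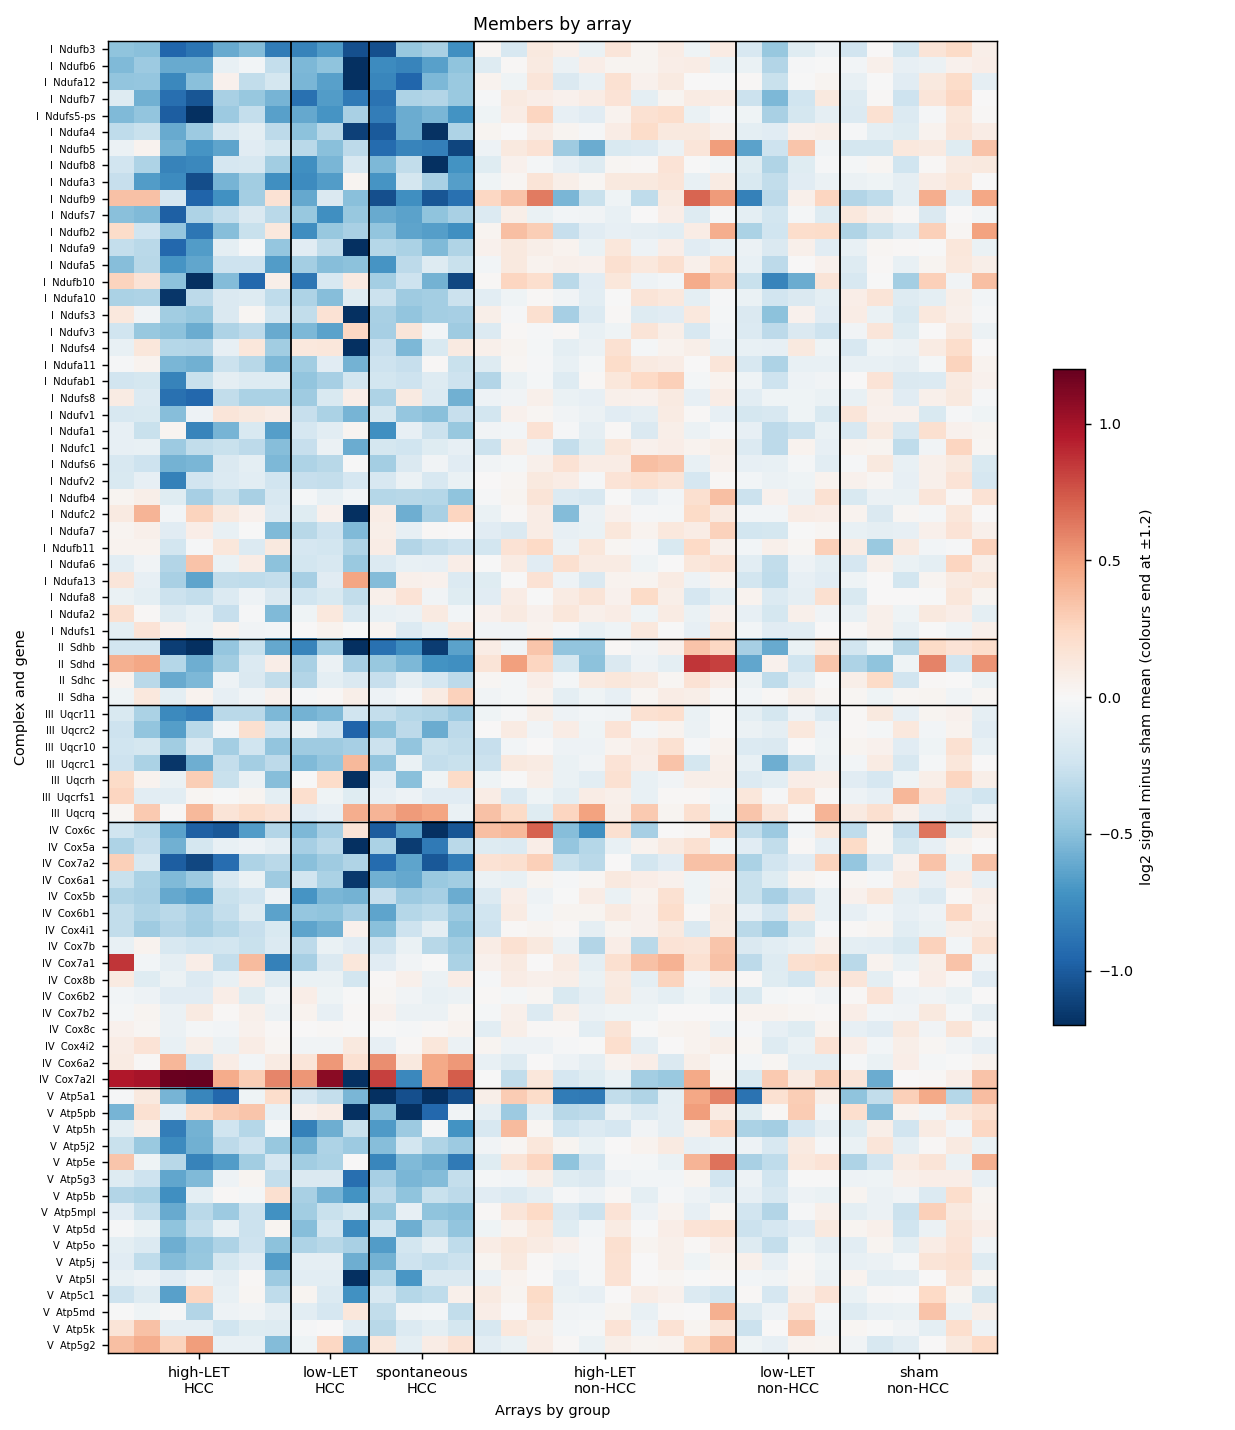
Log2 signal minus the sham mean (color, limited to ±1.2) of the 79 members (rows, by complex) on the 34 arrays (columns, by group). The HCC columns are mostly below 0, and 15 members of low-LET HCC replicate 3 lie more than 1 below the sham mean, against 0 to 7 in the other tumors.

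Genes that build or serve the complexes were counted from lists of known function. Of 14 complex I assembly factors 3, 5 and 6 were lower in the 3 kinds of HCC (high-LET, low-LET, spontaneous), and Ndufaf1 fell by 0.70, 0.71 and 0.87, Ecsit by 0.62, 0.54 and 0.76 and Foxred1 by 0.47, 0.63 and 0.65. The low-LET call of Ecsit was lost in 10 of 46 alternatives, and without low-LET HCC replicate 1 its change was -0.35 (adjusted p = 0.403). The high-LET call of Foxred1 was lost in 6 of 46, among them BeadChip as a fixed block (-0.44, 0.103) and without high-LET HCC replicate 3 (-0.35, under the fold). Of 9 assembly factors of complexes II and III 0, 3 and 2 were lower, and Sdhaf4 fell by 0.65 in low-LET tumors, a call lost without low-LET HCC replicate 3 (-0.26). Of 15 complex IV assembly factors 2, 4 and 5 were lower, with Cox18, which inserts a mitochondrial subunit, down by 0.48, 0.43 and 0.43. None of these 3 lists had a higher gene. The lower shares in the 3 kinds of HCC were 21.4%, 35.7% and 42.9% for complex I factors. They were 0%, 33.3% and 22.2% for complexes II and III, and 13.3%, 26.7% and 33.3% for complex IV. All genes had 5.47%, 6% and 6.89%, and genes above background on all arrays 11.4%, 12.3% and 14.1%. In high-LET tumors the complex IV factors were thus near the share of such genes.

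The ATP synthase inhibitor Atpif1, which blocks the enzyme from running in reverse, was the exception among complex V partners. It had 10.74, 11.32 and 11.96 in high-LET tumors (lowest, median and highest), 11.45, 11.66 and 12.30 in low-LET tumors and 11.61 to 12.05 in spontaneous tumors, against 10.57 to 10.95 in sham liver. All low-LET and spontaneous tumors were above sham liver. Atpif1 rose by 0.67 (adjusted p = 0.00735), 1.09 (0.000636) and 1.13 (8.44e-05). With BeadChip as a fixed block the high-LET change was 0.49 (0.118) and was not called. The assembly factors Atpaf2 (-0.44, -0.53 and -0.61) and Tmem70 (-0.38, -0.55 and -0.56) were called lower in the same tumors, and the high-LET call of Tmem70 lay at the fold limit and was lost in 30 of 46 alternatives.

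Of 10 other respiratory chain genes 2, 4 and 5 were lower and 0 higher. Cycs, cytochrome c, fell by 0.48, 0.53 and 0.43, and Cyc1, the cytochrome c1 of complex III, fell by 0.97 in low-LET tumors and 0.66 in spontaneous tumors. Etfdh, which feeds electrons from fatty acid oxidation to coenzyme Q, fell by 1.55 in low-LET tumors and 1.60 in spontaneous tumors. Without low-LET HCC replicate 3 the low-LET changes were -0.82 for Etfdh (adjusted p = 0.152), -0.39 for Cycs (0.199) and -0.47 for Cyc1 (0.0931). Without spontaneous HCC replicate 2 the spontaneous changes were -0.53 for Cyc1 (0.113) and -0.34 for Cycs (0.149). Of 9 coenzyme Q genes 2 were lower and 1 higher in each kind of HCC: Coq10a fell by 0.62, 1.18 and 1.33 and its paralog Coq10b rose by 0.90, 1.13 and 0.77, the last not called without spontaneous HCC replicate 1, 2 or 4 (0.70, 0.71 and 0.73). Of 12 tricarboxylic acid cycle genes 3, 2 and 4 were lower and 0 higher, with Cs, citrate synthase, down by 0.75, 1.24 and 1.13. Of 13 regulators of mitochondrial biogenesis 0, 0 and 1 were lower and 0, 1 and 1 higher, and Tfb1m, which modifies mitochondrial ribosomal RNA, was the lower one (-0.41 in spontaneous tumors). Lower shares were 20%, 40% and 50% for respiratory chain genes and 22.2% in each kind for coenzyme Q. They were 25%, 16.7% and 33.3% for the tricarboxylic acid cycle and 0%, 0% and 7.69% for the regulators. All genes had 5.47%, 6% and 6.89% lower and 4.62%, 5.4% and 7.32% higher. Genes above background on all arrays had 11.4%, 12.3% and 14.1% lower. The cycle genes in low-LET tumors were near that share.

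Markers of cell types moved in part with HCC. Of 9 hepatocyte markers 0, 1 and 1 were lower in the 3 kinds of HCC (high-LET, low-LET, spontaneous) and 0 higher, and their summed signal was 117307 to 136888, 133605 to 139511 and 129465 to 132305, against 128557 to 134769 in sham liver. Of 10 macrophage markers 6, 0 and 4 were higher, with summed signals of 3156 to 9547, 1496 to 4386 and 3214 to 6952, against 2442 to 3512 in sham liver. Clec4f, a Kupffer cell marker, was above background on all arrays and Cd5l on none. Of 7 neutrophil markers 3, 1 and 0 were higher, with summed signals of 749 to 33341, 1008 to 1764 and 543 to 1693, against 480 to 757 in sham liver. Each of the remaining lists (T cell, B cell, endothelial, stellate, cholangiocyte, erythroid, muscle and adipose markers) had at most 2 genes called in a kind of HCC. Of the hepatocyte markers 0%, 11.1% and 11.1% were lower, against 5.47%, 6% and 6.89% of all genes. Macrophage markers were higher in 60%, 0% and 40%, and neutrophil markers in 42.9%, 14.3% and 0%. Higher calls made up 4.62%, 5.4% and 7.32% of all genes. The part of these cells in the members' values was not tested.

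BeadChip was examined because signals can differ between chips, and all 79 members were counted within each chip that held both groups. Relative to sham liver on the same chip, 63, 49 and 62 of 79 members were lower in high-LET tumors on chips 1, 2 and 8, with median differences of -0.18, -0.06 and -0.15. In low-LET tumors 66 of 79 were lower on chip 2 (-0.25), and in spontaneous tumors 67 and 72 were lower on chips 1 and 6 (-0.35 and -0.40). Relative to high-LET non-HCC liver, 53, 66 and 64 were lower in high-LET tumors on chips 3, 7 and 8 (-0.11, -0.45 and -0.23), and relative to low-LET non-HCC liver 65 were lower in low-LET tumors on chip 2 (-0.20). The same counts were made for irradiated livers without HCC relative to sham liver. In high-LET non-HCC liver 31, 67 and 31 of 79 members were lower on chips 5, 6 and 8 (0.02, -0.13 and 0.02), and in low-LET non-HCC liver 61, 46 and 49 were lower on chips 1, 2 and 5 (-0.09, -0.04 and -0.04). Each group had 1 to 3 arrays on these chips, so no test was made within chips.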

How the data were processed

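RNA from 34 livers was labelled and hybridized to Illumina mouse BeadChips. The authors summarized the scans in GenomicStudio, and the deposited non-normalized table holds linear intensity. The deposited normalized table holds log2 values after MBCB background correction and quantile normalization by the authors, and was used as an alternative (rank correlation with the intensity 0.99997 or more). From the intensity, limma 3.58.1 (R 4.3.3) applied normexp (offset 50), quantile normalization and log2. Probes were kept (45219 of 45281) where 3 or more arrays exceeded the median of the array's dimmest 25%. Of all probes 10378 had no symbol and 18 several. An array's background limit was the mode of its signal plus 1.645 SD of the lower side. All 6 groups were fitted as means, with Benjamini-Hochberg adjustment over all probes kept. Replicates were numbered in the order of the records. The procedure was tested on simulated data. For each complex the 4 genes of smallest adjusted p were named, with the isoforms of other tissues and other members called. Genes of the pathway lists were counted and up to 3 per list named. The members and lists were chosen with earlier results of these data known. Precision was limited by the number of arrays. Figures used matplotlib 3.10.9.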

Additional observations from a re-analysis of the deposited data

Results flagged for a closer look

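Among 135 groups of 4 to 10 arrays, 2 had an array far from the rest, and chance gives about 1 in 20. Uqcrc1 in high-LET HCC replicate 3 was at 10.90, with the nearest tumor at 11.49 (gap 0.641 of the range, n = 7). Cox6b1 in high-LET non-HCC replicate 1 was at 13.28, with the nearest liver at 13.49 (0.467 of the range, n = 10). Ndufa4 (0.469), Ndufb5 (0.588) and Atp5a1 (0.934) differed between high-LET and spontaneous HCC on the log2 scale in limma's test of that difference, each higher in high-LET tumors. They were 3.80% of the members, close to the 3.49% of all genes called in that comparison. Only Ndufa4 kept its call with BeadChip as a fixed block, and each of the 3 lost it without spontaneous HCC replicate 1.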

How the results depend on the processing

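Counts below are members called in either direction, with the value of the reported processing in brackets. Scaling to a common median gave 3 (20) in high-LET tumors, 9 (27) in low-LET tumors and 19 (30) in spontaneous tumors against sham liver, 13 (27) and 0 (13) in high-LET and low-LET HCC against non-HCC liver of the same radiation, and 0 (3) between high-LET and spontaneous HCC, and moved the median of spontaneous tumors against sham liver to -0.489 (-0.34). It also moved the share of higher calls among all genes to 67.5% (47.8%) and 76.8% (49.6%) in the same-radiation comparisons. Adjusted p under 0.05 with fold above 1.5 gave 5 (20), 9 (27), 15 (30), 7 (27), 4 (13) and 0 (3) in the same order, and 5 (26) for all HCC. For no fold threshold, an alternative chosen after seeing the data, no share of all genes is given. The counts were 36 (20) in high-LET tumors against sham and 42 (27) against high-LET non-HCC. They were 56 (26) for all HCC and 5 (3) between high-LET and spontaneous HCC. The last was also 5 with the authors' normalized values and with array weights, and 0 with only the groups compared, which gave 6 (13) in low-LET tumors against low-LET non-HCC. BeadChip as a fixed block gave 17 (27) and 5 (13) in the same-radiation comparisons. Between high-LET and low-LET HCC the count was 2 with the background-limit filter, 2 with array weights and 1 with BeadChip as a random block (0). With 1 array left out, calls were 12 to 26, 22 to 32 and 25 to 33 against sham liver, the lowest without high-LET HCC replicate 3, low-LET HCC replicate 3 and spontaneous HCC replicate 1. They were 17 (without high-LET HCC replicate 3) to 32 and 8 (without low-LET non-HCC replicate 4) to 20 (without low-LET HCC replicate 2) within a radiation type, 23 to 28 for all HCC, 0 to 9 (without low-LET HCC replicate 1) between high-LET and low-LET HCC, 0 to 5 between high-LET and spontaneous HCC and 0 elsewhere. The causes were not tested. Among the named genes' called values, none changed sign under any alternative. No paired analysis was made, because mouse identities were not used and the replicates, numbered in the order of the records, pair no samples.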

Other observations

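The members differed in how much they varied among livers without HCC. The 10 bright members of largest SD within the non-HCC groups, chosen after their values were seen, were Atp5a1 (SD 0.49), Sdhd (0.45), Ndufb9 (0.42), Cox6c (0.40), Ndufb5 (0.31), Atp5e (0.31), Ndufb10 (0.29), Ndufb2 (0.28), Sdhb (0.28) and Cox7a2 (0.28). They belong to complexes I, II, IV and V. Their wide range on these arrays follows from that choice. On each array the median of these 10 genes relative to the sham mean was 0.36 to 0.47 in the 3 non-HCC livers on chip 8, 0.17 to 0.31 in the 3 on chip 5 and 0.08 and 0.28 in the 2 on chip 3. It was -0.14 and -0.08 in the 2 on chip 7, -0.28, -0.08 and 0.02 in the 3 on chip 2, -0.45 to -0.03 in the 4 on chip 6 and -0.39 to -0.22 in the 3 on chip 1. In the 4 spontaneous tumors it was -0.93 to -0.64. Spontaneous HCC lay on 3 chips. With BeadChip as a fixed block, the 10 genes' changes against sham liver ran from -0.82 (Atp5a1, adjusted p = 0.000605) to -0.27 (Sdhd, 0.199). Neither Sdhd nor Ndufb10 (-0.44, 0.12) was called. The sham livers were among those used to choose these genes, and how the 10 compare with other members was not tested. Within chips 1 and 6 Atp5a1 was at -0.91 and -0.92 in spontaneous tumors relative to sham liver.

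Low-LET HCC replicate 3 lay on chip 4, which held only tumors. It had 15 members more than 1 below the sham mean on the log2 scale, against 0 to 7 in the other tumors and 0 in every non-HCC liver. Its Atp5pb signal was 7.92 (against 10.85 to 11.57 in sham liver), its Cox5a signal 10.76 and its Ndufb6 signal 10.53, against 12.59 to 13.03 for Cox5a and 12.47 to 12.65 for Ndufb6 in sham liver.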
